A study of Drosophila melanogaster with 14 samples.

Results

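The genes described here are the Rab, Vps and Sec genes of membrane traffic, taken as every gene whose symbol in the array's gene table begins with Rab, Vps or Sec followed by a digit. Rab3 was left out. The rule gave 61 of the 10844 genes that had a probe set of their own: 18 Rab, 26 Vps and 17 Sec genes. Where a gene had several probe sets, the one with the highest mean of the 14 arrays stands for it. Values compare groups of arrays for one gene and never one gene with another. Rab1, Rab5, Rab6, Rab7, Rab8, Rab11, Sec6 and Sec23 had no probe set of their own in that table and were not analysed here.

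Rab proteins are small GTPases that mark membranes and recruit the motors and tethers that move vesicles between them. Many Vps (vacuolar protein sorting) and Sec (secretory) proteins were first found in yeast. They build the coats, tethers and sorting complexes of the secretory and endosomal routes. Fly photoreceptors carry a heavy load on these routes, because rhodopsin is made in the endoplasmic reticulum, delivered to the light-sensing rhabdomere, and later taken back into endosomes for recycling or degradation.

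RNA of Drosophila melanogaster heads was hybridised to 14 single-colour Affymetrix arrays in 3 groups. The IP group held 4 arrays of the RNA that a FLAG-tagged poly(A)-binding protein carried, recovered with anti-FLAG beads from about 200 heads per sample after 30 min in 1% formaldehyde. The labels name its source as photoreceptor cells R1-R6, after the Rh1-GAL4 driver, which acts in these outer photoreceptors. The Rh1 group (Rh1 heads) held 4 arrays of total RNA from about 100 whole heads per sample of the same Rh1-GAL4 and P{UAS-dPABP-FLAG} genotype. The labels write the transgene both as dPABP and as hPABP, so the form of the protein was not settled. The CS group (CS heads) held 6 arrays of total RNA from about 100 whole Canton-S heads per sample, a wild-type strain without driver or transgene. No fly ages or sexes were stated. The labels do not say whether replicates are separate batches of flies. The p-values set the difference between groups against the spread of these samples within groups, and that spread may be technical.

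Signals below are the deposited linear intensities after scaling each array to a common trimmed mean. Fold changes are differences of log2(signal + 32), given with their standard error, and understate the change of dim genes. The test was limma's moderated test with Benjamini-Hochberg adjustment over 9776 probe sets past a brightness filter, and a gene is called higher or lower at an adjusted p under 0.05. The filter left 51 of the 61 genes to be tested. Rab23 passed it only through its brighter IP arrays, so it had to differ there, and only its values are given. Counts over the 51 include it, and the counts of higher genes in IP with all arrays are given without it too. Counts with arrays left out or under other settings include it and are not given without it. Rab10 stands on a probe set of the reduced kind (suffix _r_at), for which the array's design dropped some of its rules for choosing probes, and its values are uncertain.

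The IP arrays were less alike than the head arrays. The log2 values of array pairs correlated at 0.909 to 0.985 in IP, at 0.99 to 0.996 in Rh1 heads and at 0.988 to 0.996 in CS heads. For the 51 tested genes the median SD of log2 signal was 0.274 in IP, 0.0854 in Rh1 heads and 0.0931 in CS heads. IP arrays 2 and 4 had lost most signal from the 5′ part of transcripts. The ratio of 5′ to 3′ control signal for eIF-4a was 0.0284 and 0.0432 on these 2, against 0.531 and 0.209 on IP arrays 1 and 3, 0.604 to 0.678 in Rh1 heads and 0.444 to 0.593 in CS heads. IP arrays 1 and 3 were below the heads too for GAPDH, at 0.202 and 0.169 against 0.405 to 0.468 in Rh1 heads and 0.291 to 0.541 in CS heads, and for actin, at 0.135 and 0.0679 against 0.421 to 0.513 in Rh1 heads and 0.317 to 0.394 in CS heads. The genes called in IP are given with and without arrays 2 and 4, which lowers but does not remove this difference in 5′ signal.

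Markers of cell types differed between the groups. Of 12 photoreceptor markers tested, 11 were higher in IP than in Rh1 heads and 0 lower, and their summed signal was 39550 to 66370 per IP array, 20420 to 21190 per Rh1 head array and 56050 to 61470 per CS head array. Muscle markers were lower in IP for 8 of 8, fat body markers for 7 of 9, markers of other neurons for 6 of 8, glial markers for 4 of 7 (2 were higher) and hemocyte markers for 4 of 4. Muscle markers summed to 3722 to 5798 in IP, against 24150 to 25920 in Rh1 heads. Fat body markers summed to 13210 to 25870 in IP, against 93470 to 102900 in Rh1 heads. Neuronal markers summed to 2376 to 4827 in IP, against 6799 to 7715 in Rh1 heads. Glial markers summed to 6734 to 11950 in IP, against 15430 to 17050 in Rh1 heads, and hemocyte markers to 1007 to 1633, against 3496 to 3757. Without IP arrays 2 and 4, photoreceptor markers were higher for 12 of 12 and neuronal markers lower for 5 of 8, and the other counts were the same. None of these markers had a signal of 0 on any array. The part of this difference in cell content in the results below was not tested. In such bulk samples fewer cells of a type and less RNA per cell cannot be told apart.

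The first comparison asked how transcripts bound to the tagged protein in R1-R6 stood against whole heads of the same genotype. More trafficking genes were called higher than lower in IP. Of the 51 tested, 23 were higher (45.1%) and 7 lower (13.7%), while 21 did not pass the test. Leaving out Rab23, 22 of 50 were higher (44%). Over all probe sets tested, 21.8% were called higher and 25.6% lower. The median log2 fold was 0.30 for the trafficking genes, 0.27 without Rab23, and 0.01 for all probe sets. For 46.6% of all probe sets IP and Rh1 head arrays lay apart without overlap, and the genes named below were in part chosen for not overlapping, so a lack of overlap is a description only. Without IP arrays 2 and 4 the counts were 25 higher and 8 lower, of which 22 and 6 were also called with all arrays, and the shares over all probe sets were then 24.1% and 31.8%. Of the 21 that did not pass, Rab2, Rab3-GEF, Sec16, Vps2 and Vps25 passed without these 2 arrays and the others did not. IP and heads differ in fixation, bead recovery and sonication as well as in the cells they draw on, and these cannot be told apart here.

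By family, Vps genes had 10 of 20 higher and 1 lower, Sec genes 8 of 15 higher and 3 lower, and Rab genes 5 of 16 higher (4 of 15 without Rab23) and 3 lower. Without IP arrays 2 and 4 these counts were 12 and 1 for Vps genes, 7 and 4 for Sec genes, and 6 and 3 for Rab genes. Over all probe sets 21.8% were higher and 25.6% lower with all arrays, and 24.1% and 31.8% without these 2. In the retromer and in the exocyst 3 of 3 tested subunits were higher. The ESCRT machinery had 4 of 8 higher and 0 lower. The translocon split, with 2 of 4 higher and 2 lower.

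**Figure D1:**
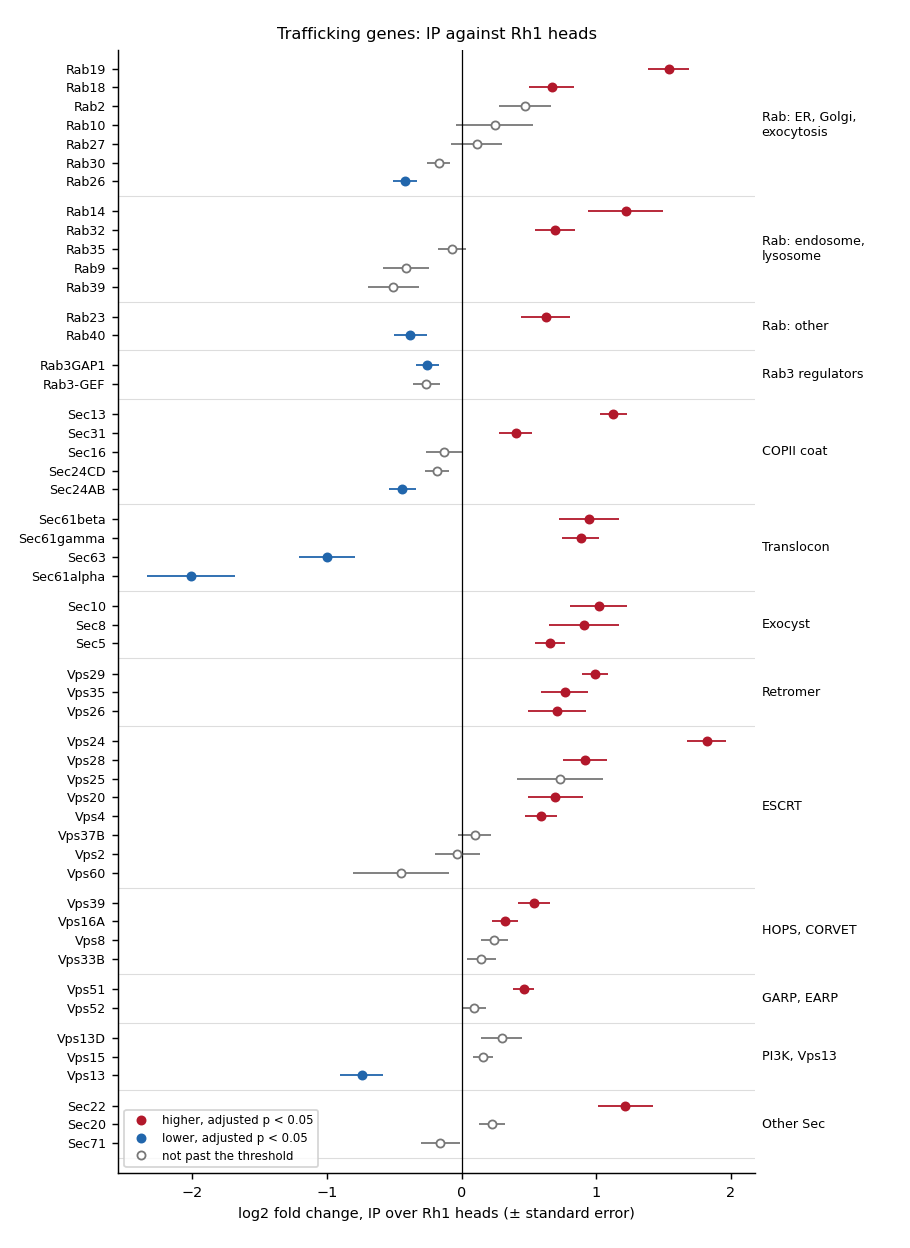
Log2 fold change of the 51 tested trafficking genes, IP over Rh1 heads, with standard errors (4 arrays a group). Genes run down the page by role, filled points passed an adjusted p of 0.05. Rab23 passed the brightness filter only through its IP arrays, so its filled point is not read as a test result. Retromer and exocyst genes all lie right of 0, while the translocon spans from -2.01 for Sec61alpha to 0.94 for Sec61beta.

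The retromer, which returns cargo from endosomes to the Golgi or the cell surface, has the core subunits Vps26, Vps29 and Vps35. Vps29 had signals of 905.7, 1102, 1019 and 1007 in IP, against 489.9, 533.8, 462.1 and 476.1 in Rh1 heads, which is 0.99 ± 0.10 on the log2 scale (fold ± SE, limma adjusted p = 3.08e-05). Vps35, the scaffold of the complex, had 739.1, 669.7, 834.9 and 1222 in IP, against 510.4, 519.8, 435.3 and 471.3 in Rh1 heads, a log2 fold of 0.77 ± 0.17 (adjusted p = 0.00516). Vps26, the cargo-side arm, had 481.3, 403.1, 522.8 and 923.5 in IP, against 321.6, 344.1, 324.2 and 318 in Rh1 heads, a log2 fold of 0.71 ± 0.21 (adjusted p = 0.0211). The groups did not overlap for any of the 3, and IP array 4 was the highest for Vps26 and Vps35. The Vps26 call was lost when Rh1 head array 1 or 4 was left out (adjusted p up to 0.0523). Without IP arrays 2 and 4 the log2 folds were 0.93 for Vps29, 0.67 for Vps35 and 0.57 for Vps26, and all 3 remained called (adjusted p = 2.96e-05, 0.000392 and 0.000227).

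The exocyst tethers secretory vesicles to the plasma membrane, and in fly photoreceptors it serves delivery to the rhabdomere. Sec5 had 301.8, 429.9, 314.4 and 355.2 in IP, against 207.9, 208.4, 211.9 and 204.7 in Rh1 heads, a log2 fold of 0.66 ± 0.11 (adjusted p = 0.000912). Sec10 had 316.7, 503.8, 349.2 and 711.6 in IP, against 212.5, 196.5, 203.7 and 206.4 in Rh1 heads, a log2 fold of 1.02 ± 0.21 (adjusted p = 0.00348). Sec8 had 444.5, 886.2, 780.9 and 1106 in IP, against 404.1, 279.5, 466.9 and 447.8 in Rh1 heads, a log2 fold of 0.91 ± 0.26 (adjusted p = 0.0171). The Sec5 and Sec10 groups did not overlap, and for Sec8 the first IP array lay among the Rh1 heads. Without IP arrays 2 and 4 the log2 folds were 0.50 for Sec5, 0.62 for Sec10 and 0.55 for Sec8. The Sec8 call was then lost (adjusted p = 0.0712), as it was without Rh1 head array 2 (adjusted p = 0.0526), while those of Sec5 and Sec10 remained (adjusted p = 0.000198 and 8.52e-05). The other exocyst members, Sec3 and Sec15, were too dim to be tested. Sec3 had 58.57, 69.26, 61.41 and 136.5 in IP, against 29.94, 29.71, 27.43 and 26.53 in Rh1 heads. Sec15 had 39.25, 31.36, 40.63 and 30.11 in IP, against 56.99, 54.99, 51.2 and 53.84 in Rh1 heads. Neither overlapped between the groups, with Sec3 the higher and Sec15 the lower in IP.

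ESCRT complexes sort ubiquitinated membrane proteins into vesicles inside the endosome, the step before breakdown in the lysosome. Vps24, a subunit of the membrane-cutting ESCRT-III filament, had the highest fold of the tested trafficking genes. Its signals were 1027, 1290, 1291 and 1626 in IP, against 346.1, 375.7, 292.2 and 361.1 in Rh1 heads, a log2 fold of 1.82 ± 0.14 (adjusted p = 8.06e-06). Vps28, of ESCRT-I, had 3010, 2114, 2557 and 1808 in IP, against 1316, 1226, 1096 and 1242 in Rh1 heads, a log2 fold of 0.92 ± 0.16 (adjusted p = 0.0013). Vps4, the ATPase that takes the filament apart, had 805.9, 800.4, 691.9 and 1008 in IP, against 539.8, 502.4, 541.1 and 551.3 in Rh1 heads, a log2 fold of 0.59 ± 0.12 (adjusted p = 0.0028). In all 3 every IP array lay above every Rh1 head array, and without IP arrays 2 and 4 their log2 folds were 1.66, 1.17 and 0.46 (adjusted p = 3.84e-06, 1.39e-05 and 0.00235).

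Vps20, which starts the ESCRT-III filament, had 1112, 1364, 1208 and 646.4 in IP, against 610.7, 646, 681.6 and 592.2 in Rh1 heads, a log2 fold of 0.70 ± 0.20 (adjusted p = 0.0194). Its IP array 4 lay among the Rh1 heads. The call was lost when any of Rh1 head arrays 1 and 4 and IP arrays 2 and 3 was left out (adjusted p up to 0.0536), and held without IP arrays 2 and 4 together (log2 fold 0.84, adjusted p = 5.12e-05). Vps25, of ESCRT-II, had 1069, 967.6, 1029 and 331.9 in IP, against 469.5, 473.7, 442.2 and 431.2 in Rh1 heads. With all arrays it did not pass (log2 fold 0.73 ± 0.32, adjusted p = 0.0867). Without IP array 4 it was called, and without arrays 2 and 4 its log2 fold was 1.15 (adjusted p = 3.52e-06). Vps60, an ESCRT-III-like regulator, had 414.2, 239.3, 422.1 and 98.06 in IP, against 375.9, 418, 310.6 and 363.6 in Rh1 heads. Its low values were those of IP arrays 2 and 4, and the log2 fold was -0.45 ± 0.35 with all arrays and 0.18 without these 2 (adjusted p = 0.323 and 0.192). Vps2, of ESCRT-III, had 390.5, 230.6, 355.6 and 222.9 in IP, against 301.4, 291.1, 313.2 and 288.4 in Rh1 heads, again low on arrays 2 and 4. Its log2 fold was -0.03 ± 0.17 (adjusted p = 0.899), and without them 0.29, which passed (adjusted p = 0.0111). Vps37B, of ESCRT-I, had a log2 fold of 0.10 ± 0.12 (adjusted p = 0.544), and Vps36 of ESCRT-II was too dim to be tested.

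The tethers of endosomes and lysosomes gave smaller differences. Of the 4 tested, Vps39 and Vps16A were called. Vps39, the HOPS subunit that binds the late endosomal Rab in yeast, had 149.5, 187.7, 167 and 239.7 in IP, against 115, 122.7, 115.8 and 112.3 in Rh1 heads, a log2 fold of 0.54 ± 0.12 (adjusted p = 0.00474). Vps16A, of the core shared by HOPS and CORVET, had 674.1, 834.7, 741.9 and 733.3 in IP, against 574.6, 625.1, 598.8 and 558.6 in Rh1 heads, a log2 fold of 0.32 ± 0.10 (adjusted p = 0.0211). In neither did the groups overlap. The Vps16A call was lost without Rh1 head array 1 or 4 and with the values as deposited (adjusted p up to 0.0725), and without IP arrays 2 and 4 the log2 folds were 0.36 for Vps39 and 0.25 for Vps16A (adjusted p = 0.00263 and 0.0392). Vps8 of CORVET and Vps33B had log2 folds of 0.24 ± 0.10 and 0.15 ± 0.11 and did not pass (adjusted p = 0.0781 and 0.291). Vps51, a subunit of the GARP tether at the Golgi, had 221.9, 209.4, 207.4 and 199 in IP, against 141.5, 153.1, 128.5 and 150.1 in Rh1 heads, a log2 fold of 0.46 ± 0.08 (adjusted p = 0.000964). These groups did not overlap either, and the fold was 0.49 without IP arrays 2 and 4 (adjusted p = 0.000664). Vps52, also of GARP, had 0.10 ± 0.08 (adjusted p = 0.377).

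The translocon is the channel through which new secretory and membrane proteins enter the endoplasmic reticulum, rhodopsin among them. Its subunits went in opposite directions. Sec61alpha, which forms the pore, had 1179, 380.4, 773 and 377.4 in IP, against 2874, 2580, 2441 and 2255 in Rh1 heads, the lowest fold of the 51 genes (log2 fold -2.01 ± 0.33, adjusted p = 0.000776). Sec63, which couples the channel to the luminal chaperone, had 347.8, 241.8, 318.3 and 154.4 in IP, against 548.5, 624.2, 483.4 and 520.9 in Rh1 heads, a log2 fold of -1.0 ± 0.21 (adjusted p = 0.00332). For both genes every IP array lay below every Rh1 head array, and arrays 2 and 4 lay lowest.

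The small subunits stood higher. Sec61beta had 3875, 3241, 3653 and 1861 in IP, against 1514, 1833, 1405 and 1539 in Rh1 heads, a log2 fold of 0.94 ± 0.22 (adjusted p = 0.00672). Sec61gamma had 2370, 3050, 2716 and 3010 in IP, against 1404, 1751, 1504 and 1325 in Rh1 heads, a log2 fold of 0.88 ± 0.13 (adjusted p = 0.000518). Neither overlapped between the groups. Without IP arrays 2 and 4 the log2 folds were -1.37 for Sec61alpha, -0.65 for Sec63, 1.25 for Sec61beta and 0.76 for Sec61gamma. All 4 were called in the same direction (adjusted p = 7.05e-05, 0.000661, 1.23e-05 and 0.000583).

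**Figure D2:**
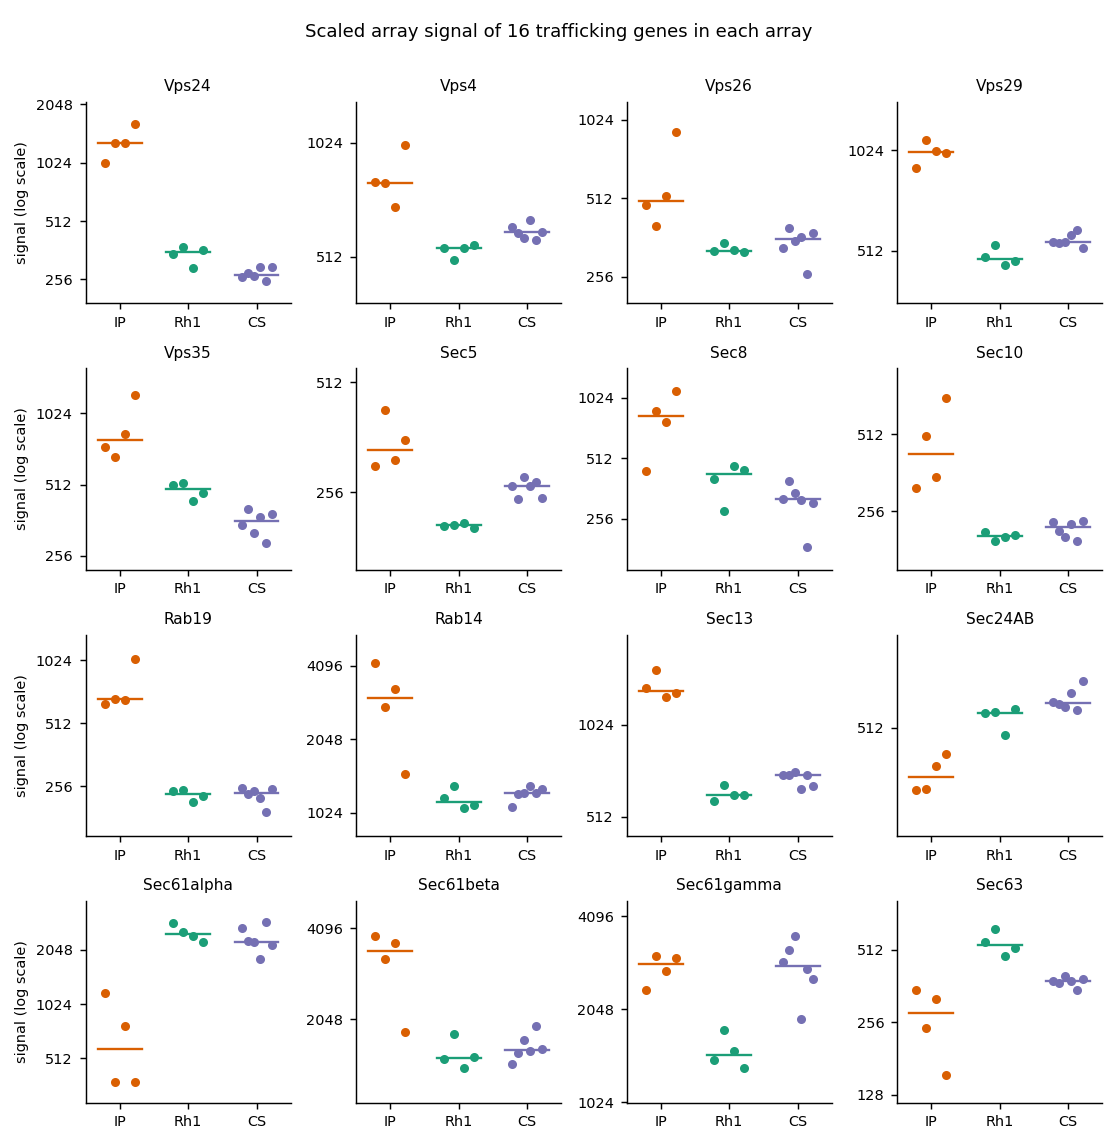
Scaled signal on each array (log axis, one panel a gene) of 16 trafficking genes in IP (4 arrays), Rh1 heads (4) and CS heads (6), with the median of each group as a line. Vps24 and Rab19 stand apart in IP from both head groups, Sec61alpha lies lower in IP, and Sec61gamma is low in Rh1 heads alone.

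COPII coats form the vesicles that leave the endoplasmic reticulum, and 5 of their genes were tested. Sec13, of the outer cage, had 1350, 1551, 1263 and 1298 in IP, against 573.8, 648.8, 602.2 and 602 in Rh1 heads, a log2 fold of 1.13 ± 0.10 (adjusted p = 1.8e-05). Sec13 protein is also a part of the nuclear pore. Sec31, its partner in the cage, had 606, 637.5, 626.6 and 438 in IP, against 407.1, 447.9, 417 and 426 in Rh1 heads, a log2 fold of 0.40 ± 0.12 (adjusted p = 0.0248). IP array 4 lay among the Rh1 heads, and the call was lost when any of Rh1 head arrays 1, 3 and 4 and IP arrays 2 and 3 was left out (adjusted p up to 0.0705), and with the values as deposited or quantile normalization (up to 0.0912). Sec24AB, a cargo adaptor of the inner coat, had 359.8, 361.7, 413.3 and 440.5 in IP, against 556.7, 560.9, 491.3 and 571.3 in Rh1 heads, a log2 fold of -0.44 ± 0.10 (adjusted p = 0.00516). The groups of Sec13 and of Sec24AB did not overlap, in opposite directions. With arrays 2 and 4 of IP left out, the log2 folds were 1.07 for Sec13, 0.51 for Sec31 and -0.46 for Sec24AB (adjusted p = 7.87e-06, 0.000565 and 0.00284). The other adaptor, Sec24CD, had -0.18 ± 0.09 (adjusted p = 0.128). Sec16, which organises exit sites, had -0.13 ± 0.14 (adjusted p = 0.455), and without IP arrays 2 and 4 it was called lower at -0.38 (adjusted p = 0.0014).

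Sec22, a SNARE that fuses vesicles between the endoplasmic reticulum and the Golgi, had 1653, 740, 993.1 and 1075 in IP, against 441.6, 465.8, 418.8 and 445.1 in Rh1 heads, with no overlap. Its log2 fold was 1.22 ± 0.20 (adjusted p = 0.000954), and 1.47 without IP arrays 2 and 4 (adjusted p = 6.18e-05). Sec20, a SNARE of the return route, had 0.23 ± 0.10, and Sec71, an exchange factor for Arf, had -0.16 ± 0.14 (adjusted p = 0.0893 and 0.392).

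Among the Rab GTPases, Rab14, Rab18, Rab19 and Rab32 were higher and Rab26 and Rab40 lower, and 1 regulator of Rab3 was lower. Rab19 had 632.8, 667.4, 661.7 and 1041 in IP, against 241.7, 245.2, 213.7 and 228.6 in Rh1 heads, a log2 fold of 1.54 ± 0.15 (adjusted p = 3.42e-05). Rab14, which acts between endosomes and the Golgi, had 4211, 2768, 3276 and 1474 in IP, against 1172, 1320, 1064 and 1096 in Rh1 heads, a log2 fold of 1.22 ± 0.28 (adjusted p = 0.00542). Rab32, which serves the making of eye pigment granules and is the product of the eye colour gene lightoid, had 9149, 7709, 9270 and 7756 in IP, against 5311, 5315, 4448 and 5813 in Rh1 heads, a log2 fold of 0.70 ± 0.15 (adjusted p = 0.00402). In these 3 the groups did not overlap. IP array 4 was the highest for Rab19 and the lowest for Rab14, and without IP arrays 2 and 4 the log2 folds were 1.36 for Rab19, 1.65 for Rab14 and 0.82 for Rab32 (adjusted p = 1.01e-06, 4.51e-06 and 0.000107).

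Rab18, found on the endoplasmic reticulum and on lipid droplets, had 801.7, 856.3, 1001 and 578.1 in IP, against 483.2, 582, 420.2 and 474.4 in Rh1 heads, a log2 fold of 0.67 ± 0.17 (adjusted p = 0.00853). Rab23, a planar polarity gene in the fly, had 167.9, 126.3, 157.5 and 276.7 in IP, against 99.66, 89.08, 114 and 108 in Rh1 heads, and no test of it is given. Only the lowest IP array of Rab18 fell within the range of Rh1 heads, and those of Rab23 lay above it. When IP arrays 2 and 4 were left out, the log2 fold of Rab18 was 0.84 (adjusted p = 0.000579).

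Rab26, linked in mammals to synaptic vesicles, had 173.6, 176.1, 159.4 and 136.9 in IP, against 228.6, 213.9, 227.1 and 233.4 in Rh1 heads, a log2 fold of -0.42 ± 0.09 (adjusted p = 0.00366). Rab40, which carries a SOCS box for ubiquitin ligases, had 305.2, 223.4, 263.5 and 191.6 in IP, against 332.8, 326.7, 323.6 and 317.5 in Rh1 heads, a log2 fold of -0.38 ± 0.13 (adjusted p = 0.0323). Both were lower in IP with no overlap. The Rab26 call held without IP arrays 2 and 4 (log2 fold -0.38, adjusted p = 0.00179). That of Rab40 did not (log2 fold -0.18, adjusted p = 0.0922), and it was lost too when any of the Rh1 head arrays or IP array 2 was left out (adjusted p up to 0.0805), and with median scaling or quantile normalization (up to 0.0967). Rab3GAP1, the catalytic subunit of the Rab3 GTPase-activating protein, had 212.5, 215.8, 220.7 and 241.4 in IP, against 282.1, 239.8, 280.2 and 286.5 in Rh1 heads, a log2 fold of -0.26 ± 0.09 (adjusted p = 0.0354). The second Rh1 head array lay just below the highest IP array. The call was lost in 6 of the 8 fits without 1 array (adjusted p up to 0.108, all but Rh1 head array 2 and IP array 4) and with one weight per group. On IP arrays 1 and 3 alone the log2 fold was -0.29 (adjusted p = 0.0187), and the gene's dimmer probe set was lower with all arrays (log2 fold -0.41, adjusted p = 0.00291). Rab3-GEF, which activates Rab3, lay lower in IP without overlap, with 353.6, 409.7, 341.9 and 404 in IP, against 473, 426.3, 498.7 and 433.8 in Rh1 heads. It missed the threshold (log2 fold -0.26 ± 0.10, adjusted p = 0.0514), and without IP arrays 2 and 4 it passed at -0.36 (adjusted p = 0.00696).

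Among the Rab genes that did not pass, Rab2, of traffic between the endoplasmic reticulum and the Golgi, had 205.6, 101.4, 217.3 and 193.9 in IP, against 110.4, 135.9, 95.19 and 126 in Rh1 heads. The second IP array was the low one, and the log2 fold was 0.47 ± 0.19 with all arrays and 0.72 without IP arrays 2 and 4 (adjusted p = 0.0704 and 0.000416). Rab9, of the route from late endosomes to the Golgi, and Rab39, of lysosomes, were low on the same 2 arrays. Rab9 had 211.5, 118.5, 183.5 and 108.3 in IP, against 199.5, 204.4, 229.9 and 209.2 in Rh1 heads. Rab39 had 357.5, 195.9, 302.2 and 174 in IP, against 373.4, 380.4, 349.2 and 358.8 in Rh1 heads. Their log2 folds were -0.41 ± 0.17 and -0.51 ± 0.19 (adjusted p = 0.0766 and 0.0536), and -0.08 and -0.14 without IP arrays 2 and 4 (adjusted p = 0.44 and 0.216). Rab35, of the recycling route, had a log2 fold of -0.07 ± 0.11, Rab30 of the Golgi -0.17 ± 0.08 and Rab27 of secretion 0.11 ± 0.19 (adjusted p = 0.606, 0.124 and 0.655). The 2 probe sets of Rab10, a Rab of exocytosis, had 0.25 ± 0.29 and -0.24 ± 0.36, and neither passed (adjusted p = 0.505 and 0.607).

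Vps13, a lipid transfer protein of membrane contact sites, was lower in IP, with 310.6, 218.3, 216.5 and 159.1 in IP, against 401.1, 355.9, 405.9 and 398.5 in Rh1 heads. The groups did not overlap, and the log2 fold was -0.74 ± 0.16 with all arrays and -0.53 without IP arrays 2 and 4 (adjusted p = 0.004 and 0.00542). Its relative Vps13D had 142.6, 157.7, 154.3 and 261.5 in IP, against 133, 138.6, 129 and 142.6 in Rh1 heads, with only IP array 4 far from the heads (log2 fold 0.30 ± 0.15, adjusted p = 0.137). Vps15, the regulatory subunit of the endosomal phosphoinositide 3-kinase, had 0.16 ± 0.07 (adjusted p = 0.0984).

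**Figure D3:**
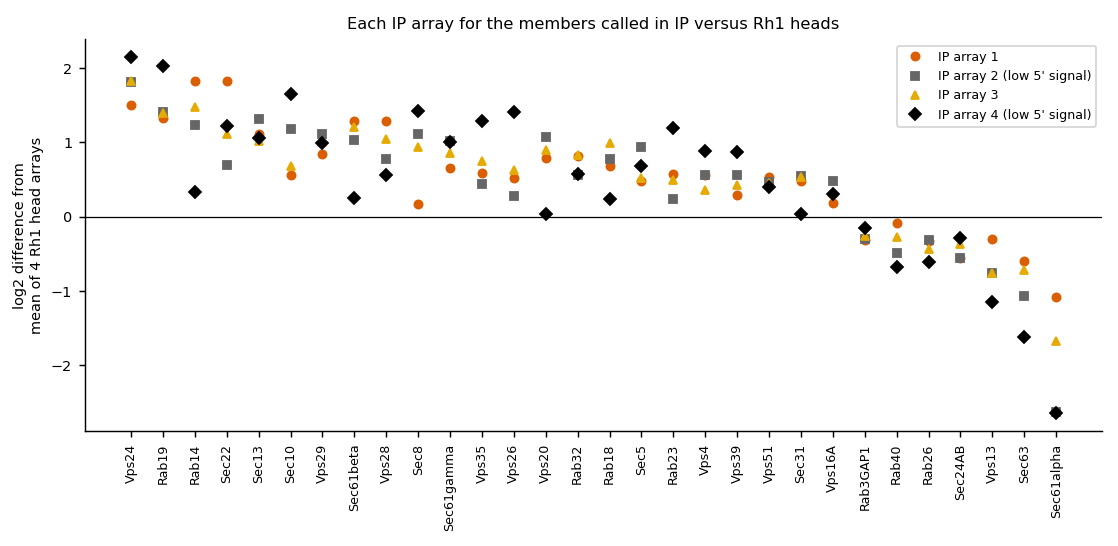
Difference in log2(signal + 32) of each of the 4 IP arrays from the mean of the 4 Rh1 head arrays, for the 30 trafficking genes called in IP versus Rh1 heads (Rab23 included), in order of their fold. The 4 arrays lie on the same side of 0 for each of these genes, though array 4 lies near 0 for Vps20 (0.03) and Sec31 (0.04). The genes were chosen by calls on the same arrays, so this is a description only. Arrays 2 and 4 lie farthest below 0 for Sec61alpha and Sec63.

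The 10 genes too dim to be tested had signals of 30.11 to 269.3 in IP, 26.53 to 107.9 in Rh1 heads and 25.89 to 109.1 in CS heads. They were Rab3-GAP, Rab9Fa, Sec3, Sec15, Vps13B, Vps16B, Vps36, Vps45, Vps50 and Vps53. Vps50, of the EARP tether, had 77.97, 112, 105.2 and 269.3 in IP, against 78.18, 77.81, 77.16 and 80.46 in Rh1 heads and 48.65, 49.89 and 54.1 as the lowest, median and highest in CS heads. Of its IP arrays 3 lay above all Rh1 head arrays and 1 among them, and both of these groups lay above CS heads.

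Genes of the same routes that carry other names were read from lists drawn up by symbol. The shares over all probe sets, 21.8% higher and 25.6% lower, apply to these lists too. Subunits of the same complexes had 9 of 15 tested higher in IP than in Rh1 heads and 0 lower, with a median log2 fold of 0.34. Snx3, a sorting nexin that works with the retromer, had 2829 to 3115 in IP, against 930.2 to 991.7 in Rh1 heads (log2 fold 1.62, adjusted p = 1.54e-06). Chmp1, of ESCRT-III, had 1700 to 2558 in IP, against 677.1 to 737.2 in Rh1 heads (log2 fold 1.45, adjusted p = 2.1e-05). Exo70, another exocyst subunit, had 268.7 to 384.3 in IP, against 104.6 to 122.1 in Rh1 heads (log2 fold 1.25, adjusted p = 1.95e-05). In these 3 genes every IP array lay above every Rh1 head array, and without IP arrays 2 and 4 the log2 folds were 1.65, 1.32 and 1.08, all called. Exo70 was chosen after its values were seen.

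The COPI coat, which carries cargo back to the endoplasmic reticulum, had 4 of 5 higher and 0 lower (median 0.55). SNAREs and the factors that recycle them had 7 of 12 higher and 1 lower (median 0.63), with 15 of 31 listed symbols paired with a probe set. One of these, Vti1a, passed the filter only through IP, and without it 6 of 11 were higher (median 0.51). Clathrin and its adaptors had 9 of 19 higher and 5 lower (median 0.35), and regulators and effectors of Rabs 3 of 18 higher and 5 lower (median -0.18). In COPI, deltaCOP and gammaCOP had log2 folds of 1.43 and 1.24 (adjusted p = 0.00563 and 1.95e-05), and without IP arrays 2 and 4 that of deltaCOP was 2.03. The SNARE Ykt6 had 1.51 (adjusted p = 4.94e-05), and Vti1a, given without a test, had 254.6 to 691 in IP, against 74.98 to 98.42 in Rh1 heads. Of the subunits of the clathrin adaptor AP-1, AP-1sigma had 1035 to 1596 in IP, against 412.3 to 503.1 in Rh1 heads (log2 fold 1.29, adjusted p = 8.24e-05), and AP-1gamma had 151 to 195.1 in IP, against 400.6 to 449.5 in Rh1 heads (log2 fold -1.18, adjusted p = 7.79e-06). Of the Rab regulators, hook, an adaptor for microtubule motors, had a log2 fold of 1.26 (adjusted p = 0.000177). On IP arrays 1 and 3 alone the log2 folds were 1.28 for gammaCOP, 1.20 for AP-1sigma, -1.13 for AP-1gamma and 0.99 for hook, all called. On these 2 arrays 11 of 15 subunits of the same complexes and 4 of 5 COPI genes were higher, and 0 lower. Of 12 SNAREs (Vti1a included) 8 were higher and 2 lower. Of 19 genes of clathrin and adaptors 9 were higher and 5 lower, and of 18 Rab regulators 5 and 7. Over all probe sets 24.1% were then higher and 31.8% lower. Gdi, which extracts Rabs from membranes, had 1918, 432.2, 727.1 and 233.5 in IP, against 1330, 1510, 1281 and 1301 in Rh1 heads, and did not pass (log2 fold -1.08, adjusted p = 0.102, and -0.19 without IP arrays 2 and 4).

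The second comparison set heads with driver and tagged protein against wild-type heads. With all arrays and the settings above, the trafficking genes were called about as often as all probe sets. Of the 51 tested, 12 were higher in Rh1 heads (23.5%) and 15 lower (29.4%), while 24 did not pass. Over all probe sets, 24.4% were higher and 29.7% lower, and the median log2 fold was -0.04 for the trafficking genes and -0.02 for all. The differences were small: log2 folds ran from -0.95 to 0.49, none reaching 2-fold. Strain background differs between these groups along with driver and transgene, and these cannot be told apart. The split between directions was not stable. Of the calls 44.4% were higher, against 61.9% with the values as deposited (8 lower), 52.2% with median scaling, 48.0% with quantile normalization and 54.5% with one fit of all arrays. It was 45.5% to 55.0% with 1 array left out, where 9 to 13 genes were lower, the fewest without Rh1 head array 1 or 4. The shares over all probe sets moved too. They were 26.9% higher and 26.1% lower with the values as deposited, against 25.5% and 15.7% of the trafficking genes. With one fit of all arrays they were 13.3% and 17.5%, against 11.8% and 9.8%. With 1 array left out, 17.6% to 25.5% of the trafficking genes and 25.7% to 31.6% of all probe sets were lower. The share of trafficking genes was the smaller in each of these fits. This comparison uses the same Rh1 head arrays as the first, so a high Rh1 value raises the one fold and lowers the other.

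**Figure D4:**
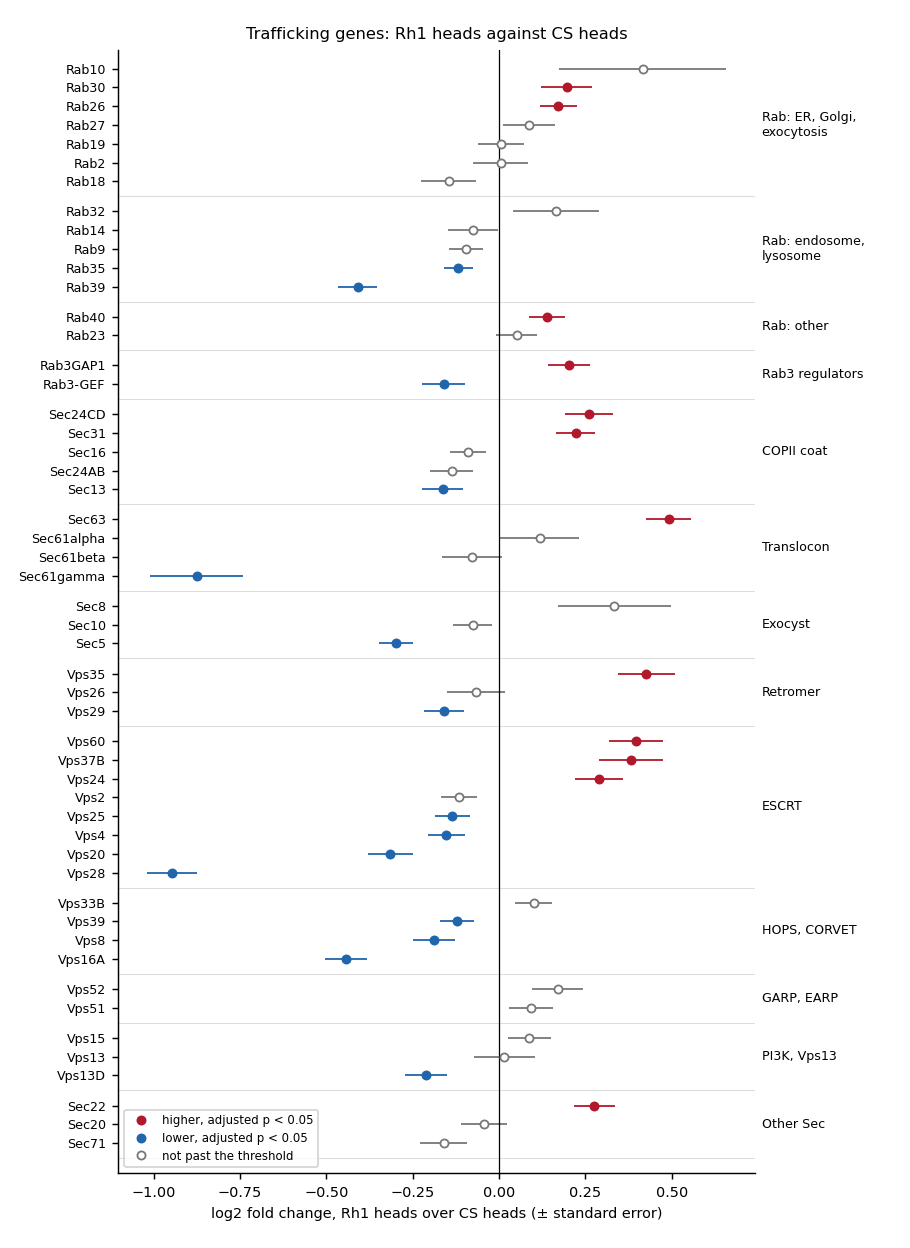
Log2 fold change of the 51 tested trafficking genes, Rh1 heads over CS heads, with standard errors (4 and 6 arrays). Genes run down the page by role, and filled points passed an adjusted p of 0.05. Vps28 (-0.95) and Sec61gamma (-0.88) lie far left of the rest, which run from -0.44 for Vps16A to 0.49 for Sec63.

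The largest falls were those of Vps28 and Sec61gamma. Vps28 had 1316, 1226, 1096 and 1242 in Rh1 heads, against 2140, 2376 and 2641 as the lowest, median and highest in CS heads, a log2 fold of -0.95 ± 0.07 (adjusted p = 2.3e-07). Sec61gamma had 1404, 1751, 1504 and 1325 in Rh1 heads, against 1903, 2831 and 3524 in CS heads, a log2 fold of -0.88 ± 0.14 (adjusted p = 0.00012). The Rh1 head arrays of both genes were all lower than the lowest CS head array. Photoreceptor markers were lower in Rh1 heads as well, 10 of 12 tested, with 1 higher, and the part of this in the 2 genes was not tested. Against CS heads, the IP arrays of these genes overlapped: the log2 fold of IP over CS heads was -0.03 ± 0.14 for Vps28 and 0.01 ± 0.16 for Sec61gamma (adjusted p = 0.871 and 0.97), and 0.22 and -0.12 without IP arrays 2 and 4, where neither passed.

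Smaller falls followed, among them those of Vps16A, Rab39, Vps20, Sec5 and Vps13D. Vps16A had 574.6, 625.1, 598.8 and 558.6 in Rh1 heads, against 764.5, 803.8 and 898.4 in CS heads, a log2 fold of -0.44 ± 0.06 (adjusted p = 4.28e-05). Rab39 had 373.4, 380.4, 349.2 and 358.8 in Rh1 heads, against 460.9, 485.6 and 548.3 in CS heads, a log2 fold of -0.41 ± 0.06 (adjusted p = 4.58e-05). Vps20 had 610.7, 646, 681.6 and 592.2 in Rh1 heads, against 741.4, 785 and 894.6 in CS heads, a log2 fold of -0.32 ± 0.06 (adjusted p = 0.00102). Sec5 of the exocyst had 207.9, 208.4, 211.9 and 204.7 in Rh1 heads, against 245.5, 266.5 and 282.5 in CS heads, a log2 fold of -0.30 ± 0.05 (adjusted p = 0.000198). Vps13D had -0.21 ± 0.06 (adjusted p = 0.00869). None of these 5 overlapped between the groups, with Rh1 heads the lower. They were named for being called without overlap, and 38.8% of all probe sets did not overlap in this comparison.

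Of the ESCRT genes 3 of 8 were higher and 4 lower in Rh1 heads. Over all probe sets 24.4% were higher and 29.7% lower, and nothing about ESCRT genes or tethers is read from counts of so few genes. Vps24 had 346.1, 375.7, 292.2 and 361.1 in Rh1 heads, against 250.7, 271 and 297.3 in CS heads, a log2 fold of 0.29 ± 0.07 (adjusted p = 0.00289). Vps60 had 375.9, 418, 310.6 and 363.6 in Rh1 heads, against 235.7, 264.8 and 299.8 in CS heads, a log2 fold of 0.40 ± 0.08 (adjusted p = 0.000758). Vps37B had 0.38 ± 0.09 (adjusted p = 0.00323). The Vps60 groups did not overlap, while those of Vps24 and Vps37B touched at 1 Rh1 head array. Of the tethers, Vps8 and Vps39 were called lower beside Vps16A, with log2 folds of -0.19 ± 0.06 and -0.12 ± 0.05 (adjusted p = 0.0191 and 0.0458).

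The highest rise was that of Sec63, with 548.5, 624.2, 483.4 and 520.9 in Rh1 heads, against 347.9, 378 and 396.4 in CS heads, a log2 fold of 0.49 ± 0.07 (adjusted p = 3.71e-05). Vps35 of the retromer had 510.4, 519.8, 435.3 and 471.3 in Rh1 heads, against 290.2, 360.4 and 402.9 in CS heads, a log2 fold of 0.43 ± 0.08 (adjusted p = 0.000735). Neither overlapped. Sec61alpha and Sec61beta did not pass in this comparison (log2 folds 0.12 ± 0.11 and -0.08 ± 0.09, adjusted p = 0.403 and 0.469). Sec22, Sec24CD and Sec31 were higher without overlap, at 0.28 ± 0.06, 0.26 ± 0.07 and 0.22 ± 0.06 (adjusted p = 0.00154, 0.00562 and 0.00459). Rab26 was higher without overlap at 0.17 ± 0.05 (adjusted p = 0.0134), and Rab3GAP1 with overlap at 0.20 ± 0.06 (adjusted p = 0.0119). The dimmer Rab10 probe set was higher without overlap too (log2 fold 0.53, adjusted p = 8.21e-07), whereas the brighter one did not pass (log2 fold 0.42, adjusted p = 0.161). With one fit of all arrays, in which IP arrays enter the estimate of spread, the calls of Rab26, Sec22, Sec31, Vps13D, Vps20 and Vps60 were lost (adjusted p from 0.0692 for Rab26 to 0.262 for Vps60).

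Of the smaller calls 10 lay near the threshold, with limma adjusted p from 0.0191 to 0.0458. Rab3-GEF, Rab35, Sec13, Vps4, Vps8, Vps25, Vps29 and Vps39 were lower and Rab30 and Rab40 higher, and each lost its call in 2 to 8 of the 10 fits that left out 1 array (adjusted p up to 0.128).

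Among related genes under other names, Rab regulators had 6 of 18 higher and 6 lower in Rh1 heads than in CS heads, subunits of the same complexes 2 of 15 higher and 3 lower, COPI 2 of 5 higher and 0 lower, SNAREs 6 of 12 higher and 3 lower, and clathrin and adaptors 7 of 19 higher and 4 lower. Over all probe sets 24.4% were higher and 29.7% lower, and nothing about the lists is read from these counts. Chc, the clathrin heavy chain, and Syb, a vesicle SNARE, had log2 folds of 0.69 and 0.65 (adjusted p = 1.64e-06 and 1.13e-06), of which that of Chc was lost with one fit of all arrays (adjusted p = 0.0933). TSG101, the ubiquitin-binding subunit of ESCRT-I, had 0.50, and Mon1, which helps exchange endosomal Rabs, had -0.48 (adjusted p = 2.53e-05 and 0.000972).

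The third comparison set IP against CS heads, which differ in genotype and in preparation and share arrays with both comparisons above. Of the 51 genes, 25 were higher in IP (49.0%) and 9 lower (17.6%), and the median log2 fold was 0.25. Leaving out Rab23, 24 of 50 were higher (48%). Over all probe sets, 26.5% were higher and 34.4% lower, with a median of -0.05. With one weight per group, which lets IP arrays spread more than head arrays, 22 were higher and 7 lower. Of all probe sets 23.5% were then higher and 29.4% lower. With IP reduced to arrays 1 and 3, the counts of trafficking genes were 27 and 10, and the shares over all probe sets 27.2% and 41.3%. Markers moved as well: in IP muscle markers were lower for 8 of 8, fat body markers for 8 of 9, markers of other neurons for 6 of 8, glial markers for 4 of 7 (2 higher) and hemocyte markers for 4 of 4, and photoreceptor markers were higher for 6 of 12 and lower for 3. Their part in the counts was not tested.

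**Figure D5:**
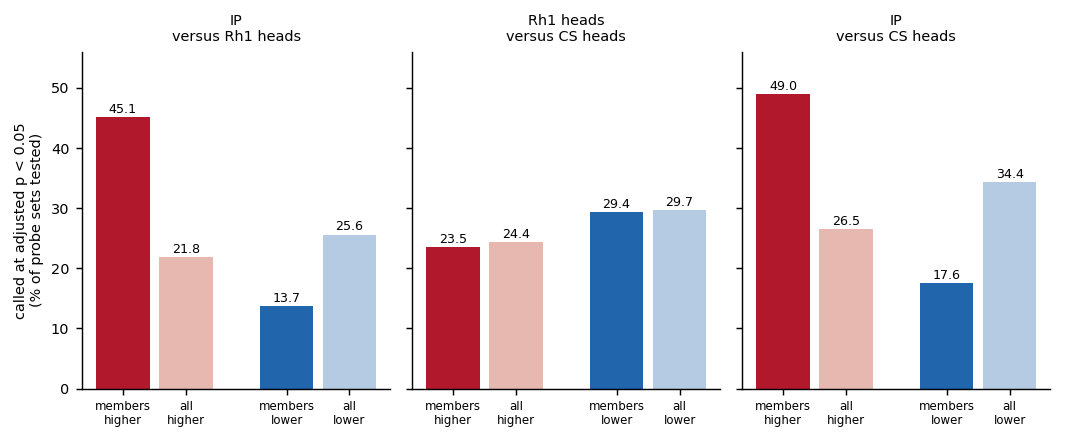
Share of trafficking genes (51 tested, dark bars) and of all 9776 probe sets tested (pale bars) called higher or lower at an adjusted p under 0.05 in each comparison, as percent. The trafficking genes exceed all probe sets among higher calls in both comparisons of IP, 45.1% against 21.8% and 49.0% against 26.5%. They differ by under 1 percentage point from all probe sets between the head groups. The bars include Rab23, and without it the shares higher in IP were 44% and 48%.

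Vps24, Rab19 and Sec22 had the highest folds of this comparison. Vps24 had 1027, 1290, 1291 and 1626 in IP, against 250.7, 271 and 297.3 as the lowest, median and highest in CS heads (log2 fold 2.11 ± 0.11, adjusted p = 2.53e-08). Rab19 had 632.8, 667.4, 661.7 and 1041 in IP, against 191.5, 238.4 and 251.5 in CS heads (log2 fold 1.54 ± 0.13, adjusted p = 1.27e-06). Sec22 had 1653, 740, 993.1 and 1075 in IP, against 330.7, 358.7 and 408.9 in CS heads (log2 fold 1.49 ± 0.17, adjusted p = 1.39e-05). In these 3 every IP array was higher than every CS head array, and without IP arrays 2 and 4 the log2 folds were 1.95, 1.37 and 1.75. Over all probe sets 48.7% did not overlap in this comparison.

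The retromer and the exocyst again had 3 of 3 tested subunits higher, where 26.5% of all probe sets were higher. On the log2 scale Vps35 had 1.19 ± 0.15, Vps29 0.83 ± 0.08 and Vps26 0.64 ± 0.19. Sec8 had 1.24 ± 0.23, Sec10 0.94 ± 0.18 and Sec5 0.36 ± 0.09. Their limma adjusted p ran from 2.01e-06 for Vps29 to 0.0117 for Vps26. Of the untested exocyst genes, Sec3 had 58.57 to 136.5 in IP, against 25.89 to 33.83 in CS heads. Sec15 had 30.11 to 40.63 in IP, against 45.92 to 54.17 in CS heads, so it lay lower without overlap. Sec61alpha had the lowest fold, with 1179, 380.4, 773 and 377.4 in IP, against 1809, 2267 and 2921 in CS heads (log2 fold -1.89 ± 0.28, adjusted p = 0.000124). Rab39 followed with 357.5, 195.9, 302.2 and 174 in IP, against 460.9, 485.6 and 548.3 in CS heads (log2 fold -0.92 ± 0.16, adjusted p = 0.000374). Neither overlapped. With arrays 2 and 4 of IP left out, these folds were -1.26 for Sec61alpha and -0.55 for Rab39, both called, and the 6 retromer and exocyst genes remained called too (adjusted p up to 0.0184, for Sec5). Sec63 was lower with all arrays (log2 fold -0.51 ± 0.16, adjusted p = 0.018), but not without these 2 (log2 fold -0.16, adjusted p = 0.0518). Of the genes called lower in Rh1 heads than in CS heads, Vps16A had a log2 fold of -0.12 ± 0.08 and Vps20 of 0.38 ± 0.17 in IP over CS heads, and neither passed (adjusted p = 0.223 and 0.0692). Vps20 was higher without IP arrays 2 and 4 (log2 fold 0.53, adjusted p = 0.000247), while Vps16A did not pass (-0.19, adjusted p = 0.0625). Calls of Rab2, Rab10, Sec71 and Vps33B were lost when single arrays were left out (adjusted p up to 0.114). Those of Rab26, Vps15 and Vps52 were lost with one weight per group (up to 0.121), and that of Rab26 also with median scaling or quantile normalization. Without IP arrays 2 and 4 the calls of Rab10 and Vps15 were lost too (adjusted p = 0.197 and 0.0561).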

How the data were processed

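The deposited values were linear signal intensities, 1 per probe set and array on 14 Affymetrix arrays, and the sources used here name neither the probe set algorithm nor the scaling. Target preparation followed the manufacturer's standard steps, per the labels. Each array was scaled to a common mean after trimming 2% at each end (310.2 to 373.4 before scaling), and log2(signal + 32) was taken. Probe sets below the 30th percentile of mean log2 signal were left out. Probe sets were named from the platform's gene table, where 12443 had 1 gene, 327 several and 1196 none, and all 61 genes matched RefSeq by gene identifier. Each comparison was fitted on its own arrays with limma 3.58.1 (lmFit and eBayes with trend, R 4.3.3), with Benjamini-Hochberg adjustment over 9776 probe sets. The number of arrays limits the precision, and no sequencing depth applies. Arrays of one group were compared in pairs, and no pair held the same values throughout.

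The spread was wider in IP than in heads. A fit with one weight per group was therefore added after seeing the data. Other alternatives were the pseudocount, the filter, the scaling, one fit of all arrays, array weights, the mean of a gene's probe sets, a replicate block, and leaving out single arrays or IP arrays 2 and 4.

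The genes and lists were chosen with earlier results of these data known. The genes to name were, per comparison, the 12 highest and 12 lowest called without overlap, a fixed set of well-known trafficking genes, and the 2 genes of largest fold in each related list. Counts without genes that passed the filter only through IP arrays were added after seeing the data. Other genes named were chosen after their values were seen.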

Additional observations from a re-analysis of the deposited data

Results flagged for a closer look

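In 13 of 183 groups of arrays over the 61 genes, the highest or lowest array stood apart by more than Dixon's 95% criterion. The groups share arrays and are not independent, so the chance rate of about 1 in 20 is only a rough guide. The array that stood apart was the fourth IP array in 6 of the 13. This array was high for Rab19 (1041, others 632.8 to 667.4), Sec3 (136.5, others 58.57 to 69.26), Vps13B (83.4, others 63.11 to 64.06) and Vps13D (261.5, others 142.6 to 157.7). It was low for Sec31 (438, others 606 to 637.5) and Vps25 (331.9, others 967.6 to 1069). It is 1 of the 2 IP arrays with low 5′ signal, and the part of that in these values was not tested.

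Among the Rh1 head arrays, the second was low for Rab3GAP1 (239.8, others 280.2 to 286.5) and Vps13 (355.9, others 398.5 to 405.9), the first for Vps53 (58.81, others 70.26 to 71.14), and the fourth for Sec20 (108.3, others 114.2 to 115). Among the CS head arrays, the fourth was low for Vps13B (65.66, others 75.45 to 79.96), the sixth low for Vps39 (119.4, others 129.4 to 133.4), and the third high for Vps51 (155.9, others 120.2 to 132.1).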

How the results depend on the processing

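Over the alternatives, 22 of the 30 genes called in IP versus Rh1 heads, 11 of 27 in Rh1 heads versus CS heads and 26 of 34 in IP versus CS heads kept their call throughout. In IP versus Rh1 heads 19 to 24 genes were higher and 5 to 9 lower when 1 array was left out. Over those fits 16.8% to 25% of all probe sets were higher and 21.8% to 30.1% lower. Array weights gave 12 lower against 7, and 39% of all probe sets lower against 25.6%. In Rh1 heads versus CS heads, leaving out 1 array gave 10 to 14 higher and 9 to 13 lower, against 12 and 15, with the fewest lower calls without Rh1 head array 1 or 4. Over those fits 21.4% to 24.5% of all probe sets were higher and 25.7% to 31.6% lower, against 24.4% and 29.7%. One fit of all arrays gave 6 higher and 5 lower in this comparison, with 13.3% of all probe sets higher and 17.5% lower. The values as deposited gave 8 lower, with 26.1% of all probe sets lower. In IP versus CS heads, leaving out 1 array gave 22 to 26 higher and 8 to 11 lower, with 24.4% to 28.7% of all probe sets higher and 31.9% to 39% lower. One weight per group, chosen after seeing the data, gave 22 and 7, with 23.5% and 29.4% of all probe sets. The cause of these shifts was not tested.

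Genes that changed sign and passed under the other setting are listed here, and others changed sign without passing. Vps2 in IP versus Rh1 heads had a log2 fold of 0.22 with array weights and 0.29 without IP arrays 2 and 4, against -0.03. In IP versus CS heads Vps60 had 0.51 and 0.58, against -0.05, and Chc 0.45 and 0.56, against -0.15, while Vps2 had 0.18 without IP arrays 2 and 4, against -0.15.

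With the replicate number as a block, 8 genes (15.7%) and 25.3% of all probe sets were lower in Rh1 heads versus CS heads. Of the calls on the trafficking genes 55.6% were then higher. The numbers did not pair the arrays: deviations of same-numbered arrays correlated at -0.112 to 0.104, those of other pairs at -0.271 to 0.204, and 0 of 4 correlated best with their own number. IP replicates are numbered in accession order and were not paired. Signal over background could not be judged, since no detection calls were used.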
